A study of Mus musculus with 8 samples.

Results

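Oxidative phosphorylation in the retina was examined through the genes of the nucleus that encode its enzymes. Members were the rows of the deposited table whose symbol was that of a numbered Nduf gene of the a, b, c, s or v series, Sdha to Sdhd, a Uqcr gene, a Cox gene numbered 4 to 8 or an Atp5 gene. This rule found 81 of 17500 genes. By name alone, 36 were placed in complex I, 4 in complex II, 8 in complex III, 16 in complex IV and 17 in complex V. The names also admit Cox7a2l, Atp5s and Atp5sl, which were treated as non-subunits in another assignment. No measured value entered the rule, and all 81 members passed the filter on low counts. RNA of the whole retina was sequenced from 4 control mice (M833, M894, M896 and M898) and 4 Rbfox2-/- mice (M893, M901, M902 and M909), 1 library per mouse. All mice were 6 months old and of C57BL/6J background. The Rbfox2-/- mice, labelled Rbfox2 KD, were Rbfox2 fl/fl with a tamoxifen-inducible Cre transgene, in which tamoxifen, given 4 months earlier, lets the Cre recombinase remove exons 6 and 7. The recombinase is not restricted to a cell type, and tissues other than the retina were not analysed here. The controls were heterozygous Rbfox2 fl/+ mice of the same age. In the labels the controls, too, carry the entry of tamoxifen for 4 months, and whether the controls carried the transgene is not given in the sources used here.

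Mitochondria make much of the ATP of a neuron by passing electrons from NADH through complexes I, III and IV, or from succinate through complexes II, III and IV, to oxygen, and by using the resulting proton gradient to drive complex V, the ATP synthase. Complexes I, III, IV and V also contain subunits encoded by the mitochondrial genome, whereas complex II is encoded wholly by the nucleus. Photoreceptors, the most numerous cells of the mouse retina, are packed with mitochondria in their inner segments. Rbfox2, the targeted gene, encodes an RNA-binding protein that recognises UGCAUG and regulates splicing. The mitochondrially encoded subunits were not analysed here.

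Each library held 160630226 to 211283591 counts. CPM stands for counts after scaling to a library size normalized by TMM, and a floor of 3 counts was at most 0.0189 CPM, which covers counting error only. Rbfox2 had 143.8 to 156.8 CPM in controls and 53.6 to 59.4 CPM in Rbfox2-/- retinas, 37.7% of the control mean (log2 fold change -1.41, SE (the standard error) 0.046, adjusted p = 5.51e-07 in the quasi-likelihood test of edgeR). The libraries of M901 and M902 stood apart on the first principal component, at 38.1 and 37.3 against -28.4 to -0.35 for the other 6. Rod genes were by far the most abundant of the retinal markers, with a summed level of 53992 to 57709 CPM in controls and 55737 to 60985 CPM in Rbfox2-/- retinas. In whole tissue, fewer cells of a type and less RNA per cell cannot be told apart.

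The genes of oxidative phosphorylation were expressed at high levels. Their median was 78.9 FPKM (fragments scaled to the length of the gene model and to the library total, which allows genes of different length to be compared), against 6.84 FPKM for all 16797 genes tested, and 27 of the 81 exceeded 100 FPKM. Together they held 0.719% of the counts. Atp5b (chromosome 10 of GRCm38, 128083273 to 128090391), which encodes the catalytic beta subunit of the ATP synthase, had the highest level with 588 ± 15.0 FPKM (SD, n = 8). Ndufa4 (chromosome 6, 11900292 to 11907497) followed with 338 ± 17.4 FPKM (SD, n = 8). It was first assigned to complex I and was later found to sit in complex IV. Cox4i1, which encodes a regulatory subunit of cytochrome c oxidase, was the highest of complex IV with 257 ± 10.7 FPKM (SD, n = 8). The highest of complex III was Uqcrh, the hinge protein at the cytochrome c docking site, with 200.8 ± 9.11 FPKM (SD, n = 8). Sdha, the flavoprotein of succinate dehydrogenase, led complex II with 142 ± 5.49 FPKM (SD, n = 8).

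**Figure D1:**
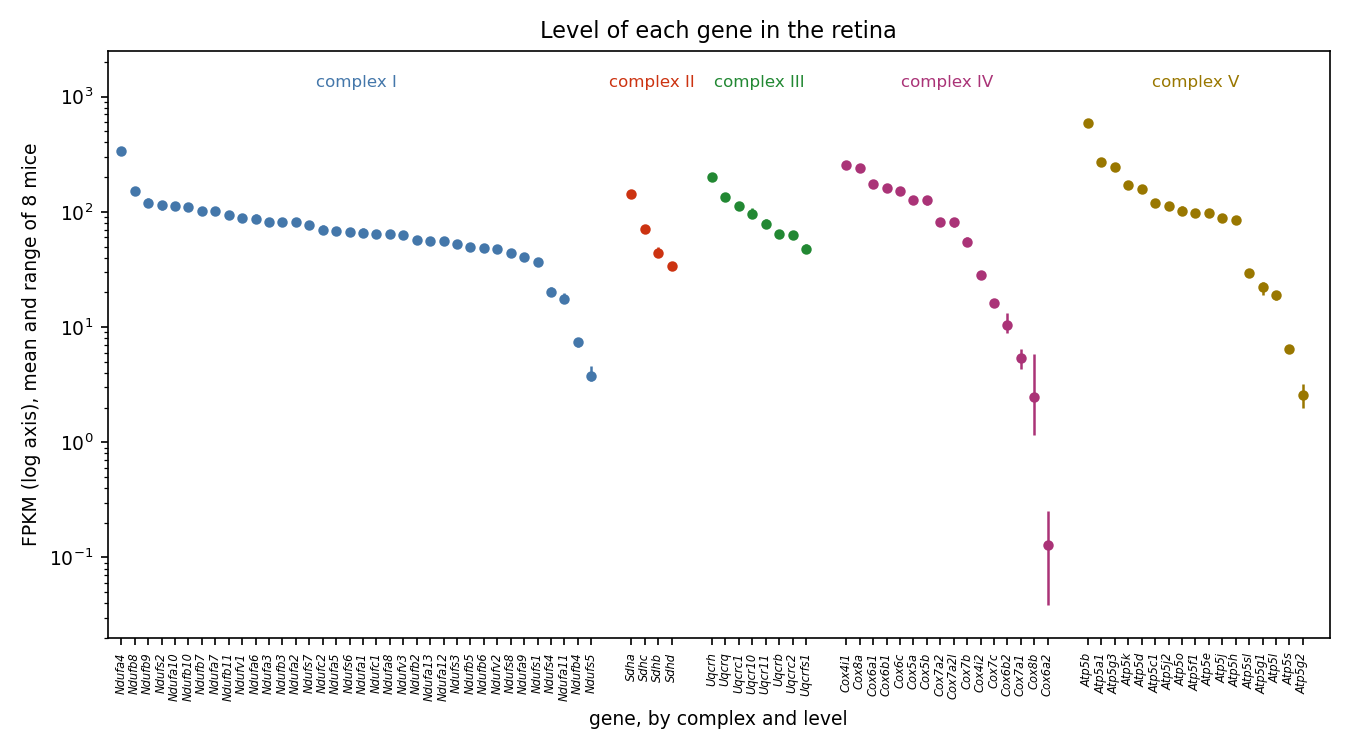
Mean FPKM (log axis) of each of the 81 genes over the 8 mice, ordered by level within complexes I to V, with lines from the lowest to the highest mouse. For most genes the range is smaller than the symbol, and the complex IV genes Cox6a2, Cox8b and Cox7a1 and the complex V gene Atp5g2 lie far below.

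Levels within a complex were unequal. Complex I genes ranged from 3.78 to 338 FPKM around a median of 65.9, complex III genes from 47.8 to 200.8 FPKM around 87.8, and complex IV genes from 0.129 to 257 FPKM around 81.6. Complex V genes ranged from 2.59 to 588 FPKM around a median of 96.9. The 7 catalytic genes of complex I, which carry its flavin and iron-sulfur clusters, had 36.8 to 114 FPKM. The 5 genes of the F1 head of the ATP synthase had 96.8 to 588 FPKM, and the 4 genes of its peripheral stalk had 85.0 to 103 FPKM. Some of the lowest values belonged to genes with near-identical copies, whose reads the counting of uniquely mapped fragments leaves out. Among all 100-base stretches of their annotated transcript, Atp5g2 shared 86.4% and Atp5l 61.3% with transcripts of other genes, and these 2 were the only members above 50%. Smaller shares were found in other low members, named for description: Cox7c (44.4%, 16.2 FPKM), Ndufb4 (33.4%, 7.36 FPKM) and Ndufs5 (19.8%, 3.78 FPKM). More abundant members had such shares too, as in Ndufa12 (38.3%, 55.9 FPKM) and Atp5h (29.5%, 85.0 FPKM). Of 80 members with a transcript, 61 shared no exact stretch of this length. Copies with mismatches were not counted.

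Between the groups, no member passed the threshold. With an adjusted p under 0.05, edgeR's quasi-likelihood test called 11 of 16797 genes (0.0655%) and 0 of the 81 members, and DESeq2, which called 465 genes in all, also called 0 members. At an unadjusted p under 0.05, 0 members were higher in Rbfox2-/- retinas against 6.42% of all genes, and 1 member, Sdhb, was lower against 6.87% of all genes. The estimates were close to 0. The median log2 fold change of the members was -0.012 and that of all genes tested was 0.0016. In complexes I, III, IV and V the medians were -0.0077, -0.011, -0.0086 and -0.012, and in complex II it was -0.055. In the other assignment, Ndufa4 was counted in complex IV, and Cox7a2l, Atp5s and Atp5sl were left out as non-subunits. The medians of complexes I, III, IV and V were then -0.0027, -0.011, -0.012 and -0.025.

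The intervals were narrow enough to bound the differences of most members. For 75 of the 81, the 95% interval of the difference lay within a 1.25-fold change in either direction. Among the 71 members with a mean of at least 10 CPM this held for all 71, against 90.9% of all genes at that level. The other 6 were Cox6a2, Cox8b, Cox7a1, Cox6b2, Atp5g2 and Ndufs5, the last named here because of this count. They had between 0.129 and 10.3 FPKM.

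**Figure D2:**
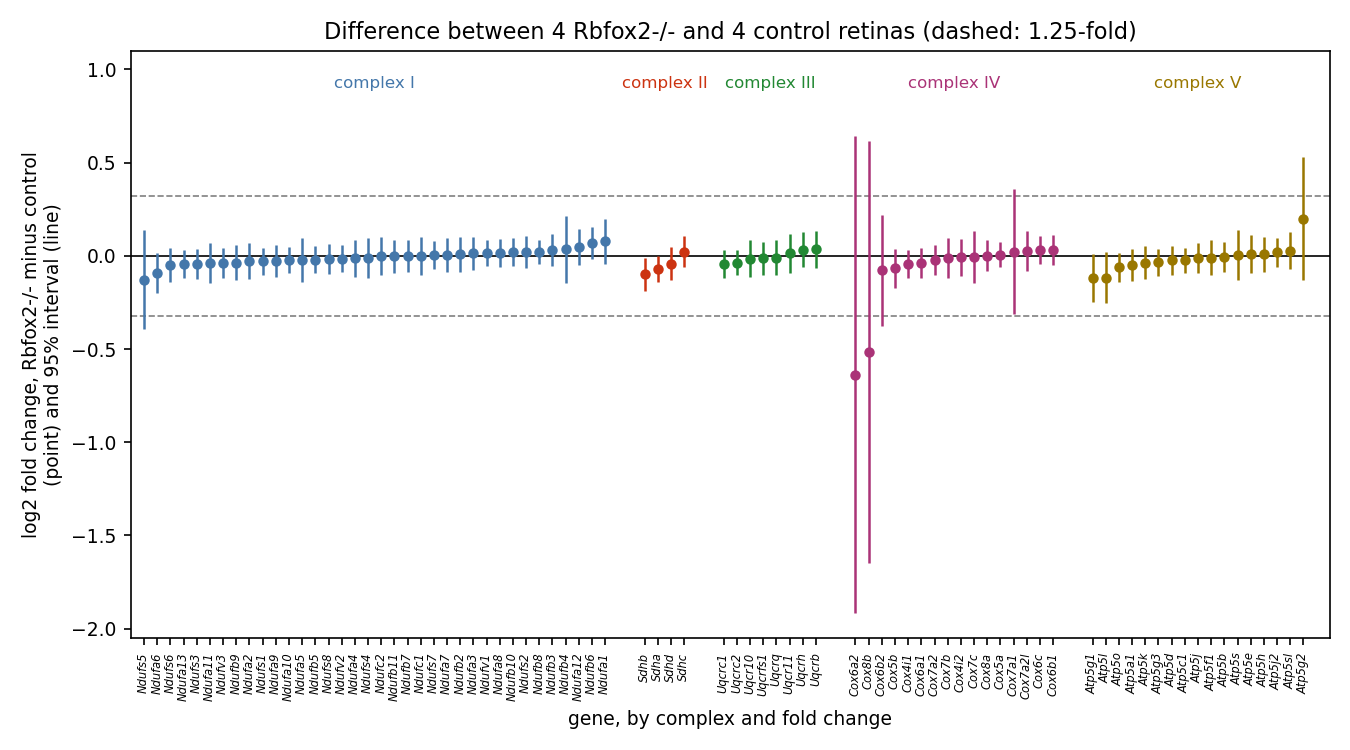
Log2 fold change of Rbfox2-/- against control retinas for each of the 81 genes, with its 95% interval from edgeR's quasi-likelihood test, ordered by value within complexes I to V. Dashed lines mark a 1.25-fold change, and the intervals of 75 genes lie between them, while those of Cox6a2, from -1.92 to 0.64, and Cox8b, from -1.65 to 0.62, are the widest.

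More members were lower than higher, 51 against 30, but this balance changed with 1 control library. Without control M898, 48 members were higher and 33 lower and the median log2 fold change was 0.015. The direction of the whole group is therefore not given as a difference between the genotypes.

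By summed CPM, complex II was the one complex whose groups did not overlap. Complex II, or succinate dehydrogenase, belongs to both the tricarboxylic acid cycle and the respiratory chain. Its summed level was 579, 581, 592 and 610 CPM in controls M833, M894, M896 and M898, and 573, 567, 570 and 560 CPM in M893, M901, M902 and M909. Every Rbfox2-/- retina thus lay below every control, and the difference of the means was -3.85%. Most of this sum came from Sdha, with 409 to 423 CPM in controls and 389 to 400 CPM in Rbfox2-/- retinas. The sum and the share of complex II therefore largely follow this 1 gene. Its share of the summed level of all 81 members, which does not depend on how libraries were scaled, was 8.08% to 8.19% in controls and 7.90% to 7.99% in Rbfox2-/- retinas. The share of each of the other 4 complexes overlapped between the groups. With M901 and M902 left out, the difference of the summed level was -4.02%. With single mice left out it lay between -4.46% (without control M833) and -2.81% (without control M898). In the deposited FPKM, which are scaled to the total count, control M833 with a sum of 284 FPKM lay within the Rbfox2-/- range of 280.1 to 290.01 FPKM, so that the groups were not separated in these sums, which also weight each gene by its length.

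Sdha (chromosome 13, 74322254 to 74350280, minus strand) encodes the subunit that oxidizes succinate. Its level was 409.4, 409.5, 418 and 423 CPM in M833, M894, M896 and M898, and 400.02, 396, 397 and 389 CPM in M893, M901, M902 and M909. All controls were above all Rbfox2-/- retinas. The log2 fold change was -0.070 (SE 0.031, 95% interval -0.14 to 0.00022), with an adjusted p of 0.378 by edgeR. Sdhb (chromosome 4, 140961203 to 140979193, plus strand) encodes the iron-sulfur subunit that passes the electrons on. Its level was 46.7, 48.5, 48.4 and 52.1 CPM in the controls, in the same order, and 45.9, 45.7, 44.8 and 46.1 CPM in the Rbfox2-/- retinas. The groups did not overlap here either. The log2 fold change was -0.10 (SE 0.041, 95% interval -0.19 to -0.0090), with an adjusted p of 0.344 by edgeR. These were the 2 members whose Rbfox2-/- retinas all lay below the controls, 2.47% of the members against 3.39% of all genes, and 0 members had all Rbfox2-/- retinas above the controls, against 3.64% of all genes. Neither count is above its background. By deposited FPKM the gap of Sdha shrank to 141.1 in M833 against 141 in M893, and the groups of Sdhb overlapped.

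The genes of the membrane anchor overlapped between the groups. Sdhc and Sdhd, described here because complex II has only 4 genes, encode the subunits that hold the enzyme in the inner membrane and bind ubiquinone. Sdhc had 80.2, 79.5, 82.9 and 87.7 CPM in controls and 84.9, 83.6, 84.5 and 82.6 CPM in Rbfox2-/- retinas. Sdhd had 42.9, 43.5, 43.6 and 46.3 CPM in controls and 42.6, 42.3, 44.4 and 42.1 CPM in Rbfox2-/- retinas. The control M898 was highest in both, and the log2 fold changes were 0.023 (SE 0.037) and -0.041 (SE 0.039). Whether the catalytic and anchor genes differed from each other was not tested.

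**Figure D3:**
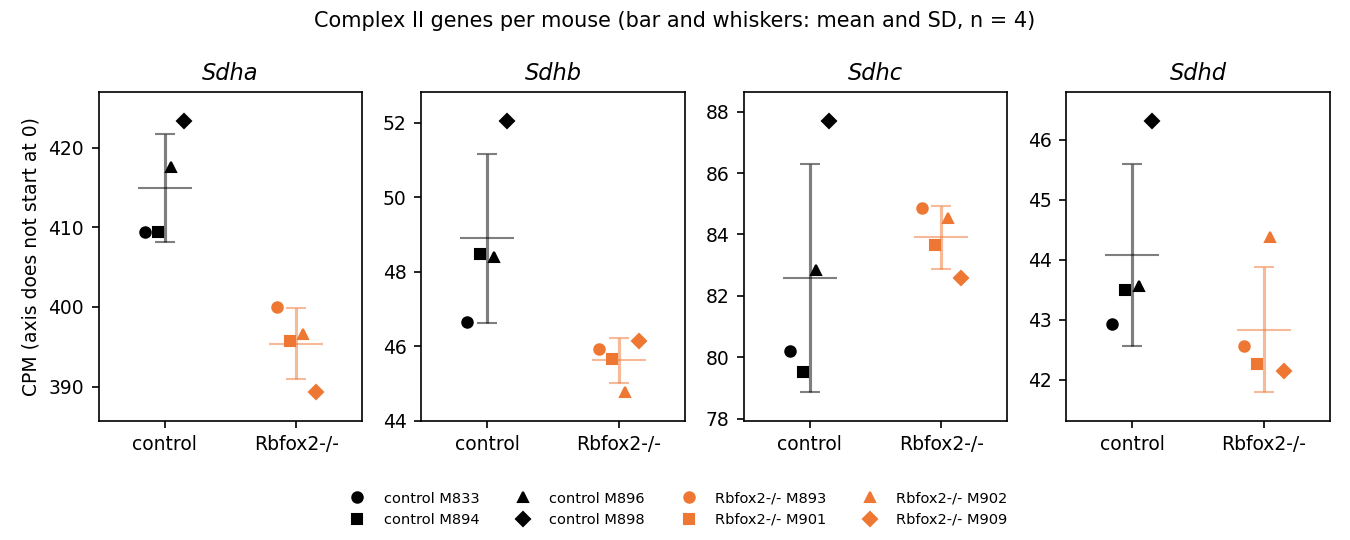
CPM of the 4 complex II genes in each control (black) and Rbfox2-/- (orange) mouse, with the mean and SD of each group of 4 and axes that do not start at 0. In Sdha and Sdhb all Rbfox2-/- mice lie below all controls, and in Sdhc and Sdhd the groups overlap.

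The regulatory sequence of these genes is shown because complex II was the complex whose summed CPM did not overlap between the groups. This did not hold for its FPKM sum, and a link between these sequences and the levels was not tested. In the RefSeq promoters (GRCm38.p6, 250 bases before to 50 after the start), that of Sdha held 3 matches, before the start, to the element of the nuclear respiratory factor NRF1 (GCGCA, any base and GCGC), and that of Sdhd held 1 match to it and 1 to CCGGAAG, an ETS element of the kind bound by GABP. That of Sdhb held an ETS match. The promoter windows, read from the gene's own strand with 1 NRF1 match each in capitals, are for Sdha, chr13:74350304-74350363 on the minus strand, and for Sdhd chr9:50603894-50603953 on the minus strand.
Sdha: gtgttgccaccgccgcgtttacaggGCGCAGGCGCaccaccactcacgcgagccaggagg
Sdhd: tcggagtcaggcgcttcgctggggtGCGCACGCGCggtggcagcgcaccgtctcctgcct
In the 3′ UTRs of GENCODE M21, 1 UGCAUG was found in Sdha (704 bases after the stop codon), Sdhc (1556 bases) and Sdhd (365 bases) each, and 0 in Sdhb. The Sdhc distance exceeds the 1179 bases of the gene model behind its FPKM, so that transcripts reaching this site were not shown here. The sites are printed with UGCAUG in capitals.
Sdha: gagccuuccccaUGCAUGcaguuauucauu
Sdhc: cugccucccgggUGCAUGuuaccaccaccc
Sdhd: ugaguuagacuuUGCAUGaagcucgaaagu

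The complex I genes did not differ beyond the spread between mice. Of 36 genes, 14 were higher and 22 lower, with log2 fold changes between -0.13 and 0.078 and a smallest adjusted p of 0.439 by edgeR. The 3 genes of the NADH-oxidizing part lay between -0.028 and 0.014, and the 4 genes of the quinone-reducing part between -0.044 and 0.021. Ndufa6, an accessory subunit of the matrix arm, had the lowest p of the complex. Its levels were 45.4, 49.0, 51.2 and 52.9 CPM in controls M833, M894, M896 and M898, and 46.8, 46.9, 46.9 and 45.6 CPM in M893, M901, M902 and M909. Control M833 lay below all 4 Rbfox2-/- retinas and the other controls above them, with a log2 fold change of -0.093 (SE 0.049, adjusted p = 0.439 by edgeR). Ndufb6, an accessory subunit of the membrane arm, had 24.5, 24.8, 25.04 and 26.1 CPM in controls and 26.6, 26.04, 26.8 and 25.8 CPM in Rbfox2-/- retinas. Only control M898 reached the Rbfox2-/- range, and the log2 fold change was 0.068 (SE 0.039, adjusted p = 0.483 by edgeR). Ndufa4 had 158 to 178 CPM in controls and 164 to 171 CPM in Rbfox2-/- retinas, with a log2 fold change of -0.013 (SE 0.045).

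The 8 genes of complex III, the cytochrome bc1 complex, had the narrowest span of fold changes, from -0.043 to 0.035. Of these, 3 were higher and 5 lower, and the smallest adjusted p was 0.603 by edgeR. Both core proteins, which share ancestry with mitochondrial processing peptidases, had a value below 0. Uqcrc1 had 188, 182, 189 and 192 CPM in controls and 181, 178, 190.1 and 179 CPM in Rbfox2-/- retinas, with a log2 fold change of -0.043 (SE 0.033). Uqcrc2 had 119, 117, 123 and 124 CPM in controls and 119, 120.01, 116 and 117 CPM in Rbfox2-/- retinas, with a log2 fold change of -0.037 (SE 0.030). In both genes the groups overlapped. Uqcrh, the most abundant gene of the complex, had 104 to 117 CPM in controls and 107 to 114 CPM in Rbfox2-/- retinas, with a log2 fold change of 0.034 (SE 0.043). The Rieske iron-sulfur protein and the 5 small subunits also lay within this span.

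In complex IV, cytochrome c oxidase, 6 genes were higher and 10 lower, with a smallest adjusted p of 0.576 by edgeR. Cox5b, a subunit of the matrix side, had 68.4, 70.7, 76.1 and 77.3 CPM in controls and 69.9, 66.4, 72.4 and 70.5 CPM in Rbfox2-/- retinas, a log2 fold change of -0.067 (SE 0.047). Cox4i1 had 187, 192, 194 and 204 CPM in controls and 189, 185, 189.6 and 188 CPM in Rbfox2-/- retinas, a log2 fold change of -0.046 (SE 0.034). In both genes the groups overlapped.

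Several complex IV subunits come in alternative isoforms with known tissue preferences, and the retina used mainly the form found in most tissues. Cox6a1 made up 99.9% of the FPKM of Cox6a1 and Cox6a2 together (median of 8 mice), Cox8a 99.1% of Cox8a and Cox8b, Cox6b1 94.3% of Cox6b1 and Cox6b2, and Cox4i1 89.99% of Cox4i1 and Cox4i2. Cox4i2, known for its high expression in lung, reached 28.4 ± 0.999 FPKM (SD, n = 8) and was thus the most abundant of the tissue-restricted forms. Cox7a2 and Cox7a2l, a factor of respiratory supercomplexes, had 48.6% and 47.8% of the FPKM of the Cox7a genes. Cox7a1, the heart and muscle form, had 3.24%. The shares overlapped between the groups for each of these genes. Cox4i2 made up 9.15% to 10.3% of its pair in controls and 9.73% to 10.5% in Rbfox2-/- retinas, and Cox6b2, known from testis, 5.32% to 7.20% and 5.20% to 6.69% of its pair. Cox7b had 54.8 ± 2.98 FPKM (SD, n = 8), and its counterpart Cox7b2 was not analysed here.

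By the coefficient of variation over the controls, Cox8b and Cox6a2, both muscle forms, varied most among the members. Cox8b had 0.562, 1.16, 0.413 and 2.07 CPM in controls M833, M894, M896 and M898 and 1.15, 0.441, 0.422 and 0.917 CPM in M893, M901, M902 and M909. Its coefficient of variation over the controls, by FPKM, was 72.5%, and the lowest value among the members was 1.46%. Both groups held mice with low and with high values, and the log2 fold change of -0.51 had an SE of 0.51. Without M898 it was 0.048. Cox6a2 was covered by only 5 to 32 counts per mouse. Its levels were 0.111, 0.136, 0.110 and 0.0621 CPM in controls and 0.0398, 0.0259, 0.0315 and 0.167 CPM in Rbfox2-/- retinas. Here 3 Rbfox2-/- mice lay below all controls and M909 above all of them, with a log2 fold change of -0.64 (SE 0.57, adjusted p = 0.666 by edgeR). Without M909 it was -1.67 (adjusted p = 0.124 by edgeR), and without M901 and M902 it was -0.0072. Markers of striated muscle were detected beside these genes. All 8 genes of that list had counts in every mouse, with a summed level of 4.74 to 7.05 CPM in controls and 4.44 to 7.27 CPM in Rbfox2-/- retinas, in which M902 was lowest and M909 highest. The part of muscle RNA in the levels of Cox6a2, Cox7a1 and Cox8b was not tested.

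**Figure D4:**
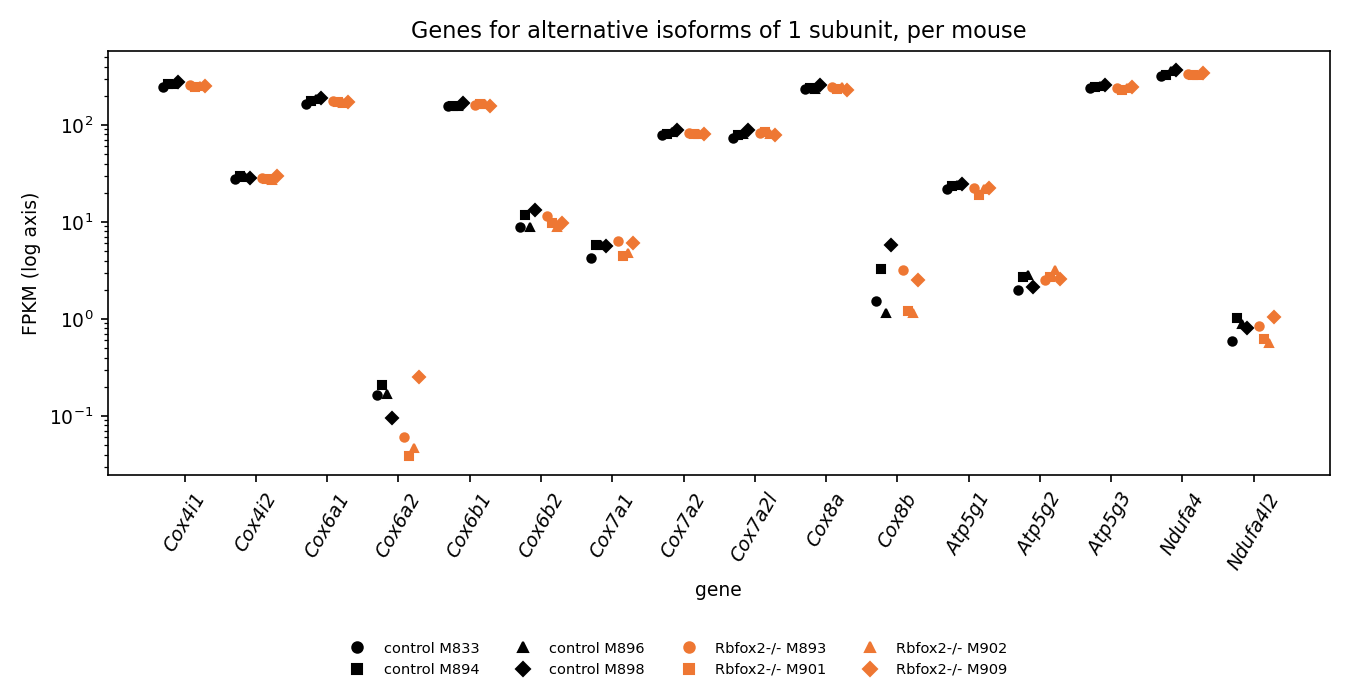
FPKM (log axis) of genes that encode alternative isoforms of a subunit in each control (black) and Rbfox2-/- (orange) mouse, with Ndufa4l2, a relative of Ndufa4 that is not a member, at the right. The main forms such as Cox4i1, Cox6a1 and Cox8a lie above 100 FPKM with little spread, and Cox8b, at 1.15 to 5.80 FPKM, and Cox6a2, at 0.0389 to 0.251 FPKM, spread widely in both groups.

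In complex V, the ATP synthase, 6 genes were higher and 11 lower, with a smallest adjusted p of 0.412 by edgeR. Without Atp5s and Atp5sl, 4 were higher and 11 lower. The genes of the F1 head, where ATP is made, lay between -0.050 and 0.0087 on the log2 scale, and those of the peripheral stalk between -0.062 and 0.0095. Atp5b had 1104, 1076, 1106 and 1142 CPM in controls M833, M894, M896 and M898 and 1114, 1117, 1104 and 1077 CPM in M893, M901, M902 and M909. The log2 fold change of -0.0053 (SE 0.037, 95% interval -0.087 to 0.077) was the smallest, in size, of the most abundant genes of the 5 complexes.

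The c subunit, whose ring turns in the membrane, is encoded by Atp5g1, Atp5g2 and Atp5g3, which yield the same mature protein. Atp5g3 made up 90.7% of the FPKM of the 3 genes, Atp5g1 8.25% and Atp5g2 0.972%, the last with the limit of its near-identical copies. Atp5g1 had 17.7, 18.6, 19.1 and 19.4 CPM in controls and 17.7, 15.6, 17.7 and 18.0 CPM in Rbfox2-/- retinas. M901 was lowest and the groups overlapped at M833, with a log2 fold change of -0.12 (SE 0.058, adjusted p = 0.412 by edgeR). Atp5g2 had 1.31 to 1.83 CPM in controls and 1.60 to 2.10 CPM in Rbfox2-/- retinas, a log2 fold change of 0.20 (SE 0.15). Atp5g3 differed by -0.036 (SE 0.033). Atp5l, which encodes subunit g of the membrane part, had 10.7, 9.43, 10.5 and 9.65 CPM in controls and 8.81, 9.32, 9.42 and 9.63 CPM in Rbfox2-/- retinas, a log2 fold change of -0.12 (SE 0.061, adjusted p = 0.439 by edgeR). Its groups overlapped at M894, and it shares the limit on unique reads.

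Among the controls, many members moved together. Control M898 had the highest level among controls in 67 of the 81 members, 82.7%, against 27.1% of all genes tested. The lowest control was M833 for 39 members, 48.1% against 29.2% of all genes tested, and M894 for 29, 35.8% against 26.8%. Among genes with a mean of at least 10 CPM the shares of M833 and M894 were 25.3% and 32.3%. Of the Rbfox2-/- retinas, M902 was highest for 40.7% of the members and M909 lowest for 48.1%. Among genes with a mean of at least 10 CPM these were 29.8% and 41.0%. Summed over all members, the levels were 7075, 7093, 7254 and 7539 CPM in M833, M894, M896 and M898 and 7173, 7176, 7205 and 7042 CPM in M893, M901, M902 and M909. The SD of the controls was 215 CPM and that of the Rbfox2-/- retinas 72.8 CPM, and the difference of the means, -1.26% of the control mean, was smaller than the control SD. All Rbfox2-/- sums except that of M909 lay within the control range.

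**Figure D5:**
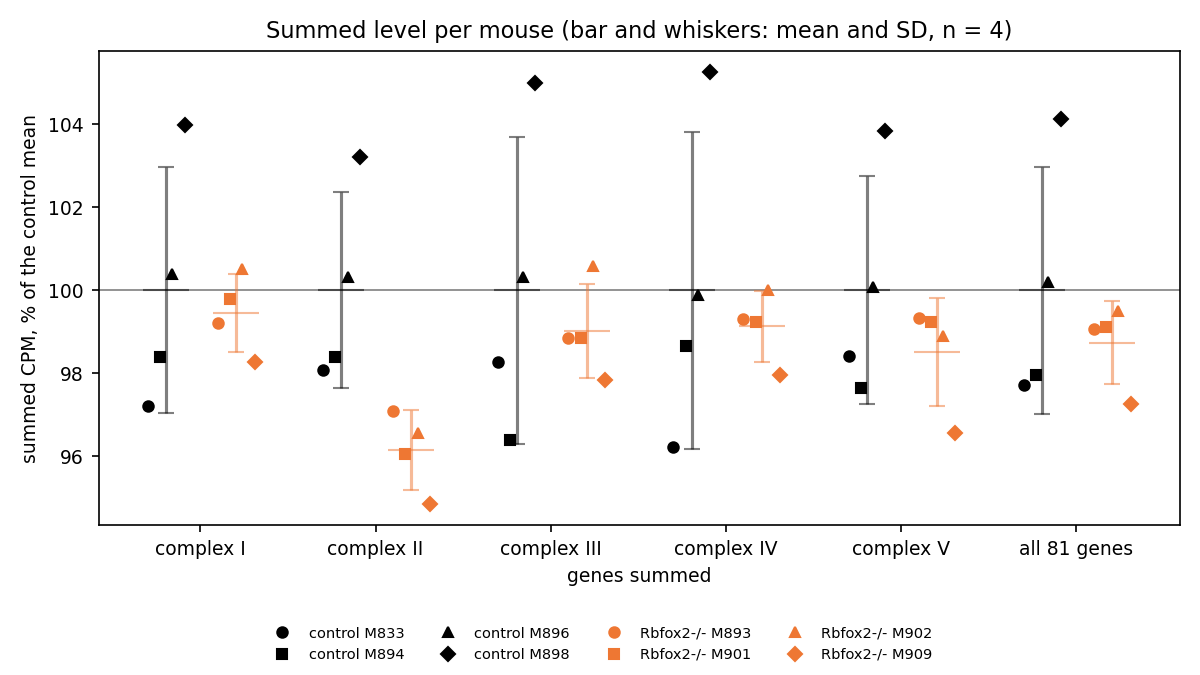
Summed CPM of the genes of each complex and of all 81 genes per mouse, as a percentage of the control mean, with the mean and SD of each group of 4. Control M898 is highest in each sum, the groups overlap in complexes I, III, IV and V, and in complex II all Rbfox2-/- mice lie below all controls, which was seen in CPM and not in the deposited FPKM.

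The same control was highest in related groups of genes. In M898, the carriers of electrons and nucleotides (cytochrome c, the phosphate and adenine nucleotide carriers and the VDAC channels) summed to 1683 CPM, the highest of 8 mice, and the enzymes of the tricarboxylic acid cycle to 1880 CPM, again the highest. By contrast the regulators of mitochondrial genes, among them Ppargc1a, Nrf1 and Tfam, summed to 448 CPM in M898, the lowest of the 8 mice. Single genes of this list went different ways. In M898 Nrf1 was the lowest of the 8 mice at 45.5 CPM and Tfam the highest at 23.0 CPM. The summed levels of rod and of Muller glia markers in M898 were 55493 and 5251 CPM, within and at the top of the control ranges. The part of these values in the order of the mice was not tested.

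The other genes of the pathway did not pass either. Of 41 assembly factors tested, proteins that help to build the complexes without being part of them, 30 were higher and 11 lower, with a median log2 fold change of 0.017 and 0 called. At an unadjusted p under 0.05, 5 of them were higher (Cox20, Bcs1l, Ndufaf2, Timmdc1 and Coa6, of which the last 3 are named for this count) and 1, Surf1, was lower, likewise named for the count. Of all genes, 6.42% were higher and 6.87% lower at that p. Cox20, a chaperone of the complex IV subunit COX2, had 17.4 to 18.2 CPM in controls and 18.5 to 19.7 CPM in Rbfox2-/- retinas, without overlap, and a log2 fold change of 0.12 (SE 0.043, adjusted p = 0.286 by edgeR). Bcs1l, which inserts the Rieske protein into complex III, had 9.75 to 11.1 and 10.6 to 12.2 CPM, a log2 fold change of 0.18 (SE 0.066, adjusted p = 0.301 by edgeR). Neither Sdhaf1 nor Sdhaf2, the assembly factors of complex II in the table, passed an unadjusted p of 0.05.

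The remaining lists held 0 genes at an unadjusted p under 0.05. Among 7 carriers, 3 were higher and 4 lower. Slc25a5, an adenine nucleotide translocase, had a log2 fold change of 0.089 (SE 0.043), and Vdac2, a channel of the outer membrane, one of -0.033 (SE 0.028). Among 11 regulators of mitochondrial genes, 8 were higher and 3 lower, with 0.081 (SE 0.053) for Gabpa, the DNA-binding part of GABP, and -0.091 (SE 0.049) for Esrra, the estrogen-related receptor alpha. Among 12 enzymes of the tricarboxylic acid cycle, 4 were higher and 8 lower. Dld, a subunit shared by several dehydrogenases, had a log2 fold change of 0.055 (SE 0.034). Of 4 subunits that the naming rule leaves out, 3 were higher and 1 lower, with 0.043 (SE 0.052) for 2010107E04Rik and -0.0093 (SE 0.064) for Usmg5, both small proteins of the ATP synthase.

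Promoter elements, which the choice by name did not use, were counted in the members and in all genes, with no test of the difference. RefSeq promoters were found for 66 members and 11437 genes tested, and both strands were searched. The NRF1 element occurred in 25.8% of the members and 9.85% of all genes, AAGATGGCG, the element of YY1, in 12.1% and 2.92%, and AAGGTCA, an element of the estrogen-related receptors, in 12.1% and 4.20%. The ETS element CCGGAAG occurred in 22.7% and 16.9%, and the TATA element TATAAA in 9.09% and 9.74%. No element contains another of them, and a match is a description of the sequence, not a site. By complex, the NRF1 element was found in 7 of 32 promoters of complex I, 2 of 3 of complex II, 1 of 3 of complex III, 1 of 12 of complex IV and 6 of 16 of complex V. The Cox6a1 window, the 1 case in complex IV, and that of Atp5h, which encodes subunit d of the peripheral stalk of complex V, are shown with the match in capitals, at chr5:115349041-115349100 and chr11:115420026-115420085, both on the minus strand.
Cox6a1: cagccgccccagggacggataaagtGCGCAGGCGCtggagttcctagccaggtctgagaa
Atp5h: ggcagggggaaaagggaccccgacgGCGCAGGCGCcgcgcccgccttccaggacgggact

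UGCAUG, the element recognised by Rbfox proteins, was less common in the 3′ UTRs of the members, which are short. It occurred in 12 of 80 members (15.0%) with a median 3′ UTR of 154 bases, against 32.4% of 14658 genes with a median of 952 bases. Per kilobase the densities were 0.429 and 0.362. Beside the 3 complex II genes above, Ndufa4 and Ndufa6 of complex I held 1 each and Atp5g1 of complex V held 2. Those of Atp5g1 lie 2880 and 3082 bases after the stop codon, farther than the 805 bases of its gene model. The sites of Ndufa4 and Ndufa6 are shown as those of the most abundant gene and of the gene with the lowest p of complex I. Introns were not searched.
Ndufa4: uaugucucugaaUGCAUGaaaucauguuga
Ndufa6: cugaugggaaggUGCAUGuuaauauuuaac

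Markers of some retinal cell types differed between the groups beside these results. Of the 7 lists of retinal cells, 1 gene was called, the horizontal cell marker Calb1, named for this count, with a log2 fold change of -0.40 (adjusted p = 0.0034 by edgeR). Muller glia markers summed to 4740 to 5251 CPM in controls and 4251 to 4748 CPM in Rbfox2-/- retinas, which overlapped at M909 and M833. Cone markers summed to 733 to 739.8 CPM in controls and 782 to 899 CPM in Rbfox2-/- retinas, without overlap. Of these, named to describe the sum, Opn1sw (log2 fold change 0.26), Arr3 (0.20) and Gnat2 (0.047) were higher and Opn1mw lower (-0.23). Each single cone gene overlapped between the groups. Horizontal cell markers summed to 89.0 to 92.7 and 71.6 to 74.96 CPM, also without overlap. Most of this sum was Calb1, with 73.9 to 78.0 and 56.3 to 60.5 CPM. Onecut1 was lower (-0.13) and Lhx1 higher (0.18), both named to describe the sum. The summed levels of rod, bipolar, amacrine and ganglion cell markers overlapped. Whether these differences touch the levels of Sdha and Sdhb was not tested. The summed levels of microglia and of pigment and ciliary epithelium markers overlapped as well. Of the latter, named to describe the sum, Ttr was higher (0.39) and Slc13a4 (-0.98) and Best2 (-2.02) were lower. Best2 had 5.13 to 16.0 CPM in controls and at most 4.26 CPM in Rbfox2-/- retinas, without overlap (adjusted p = 0.369 by edgeR). Slc13a4 had 10.4 to 21.9 CPM in controls and 16.2 and 13.6 CPM in M893 and M909. It had 1.48 and 1.29 CPM in M901 and M902. Both genes were lowest in these mice, which stood apart on the first principal component. The 1 blood gene in the table, Hba-a2, had at most 0.0511 CPM and 0 counts in M901.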

How the data were processed

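Libraries were poly(A)-selected and paired-end, from whole retinas of 4 Rbfox2-/- and 4 control mice, and groups were taken from the genotype labels. The authors aligned the reads to mm10 with STAR and deposited fragment counts per gene from uniquely mapped reads (HTSeq), without normalization. The submitters' processing notes also name CASAVA 1.8.2. The methods name both a RefSeq and an Ensembl annotation. Strand use in counting is not given in the sources used here, and 25 members overlap exons on the opposite strand. The authors also deposited FPKM, which equal the counts scaled to the gene model length and to the total of the column and were used to compare genes. The authors' normalized counts, means and comparisons (log2 fold changes, p-values, FDR) were not used.

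With edgeR 4.0.16 in R 4.3.3, the function filterByExpr left 16797 genes, libraries were scaled by TMM, and the quasi-likelihood test compared the groups with no covariate, with Benjamini-Hochberg adjustment over all genes tested. Adjusted p-values come from this test unless another is named. The procedure was tested on simulated data. The members, lists and tests were chosen with earlier results of these data known. Named genes are, per complex, the most abundant member, the 2 with the lowest p and a list of isoforms, and per other list the 2 with the lowest p. A gene that falls under the rule is left out here. Exceptions are marked as named for a count or description after their values were seen. Alternatives were upper-quartile scaling, DESeq2 1.42.0, edgeR's likelihood ratio test, limma-voom (limma 3.58.1), no filter, at least 10 counts in every mouse, 1 surrogate variable (sva 3.50.0), leaving out each mouse, leaving out M901 and M902, FPKM sums, and another assignment of Ndufa4, Cox7a2l, Atp5s and Atp5sl. Promoters are from RefSeq and transcripts from GENCODE M21 (GRCm38). Each of the 4 mice per group is a separate animal, and the libraries held a depth of 160630226 to 211283591 counts.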

Additional observations from a re-analysis of the deposited data

Results flagged for a closer look

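In 84 sets of 4 values (the 2 groups for each named gene and each summed level), 1 mouse stood far from the other 3 of its group in 8, where the distance to the nearest mouse as a share of the whole range exceeded Dixon's 95% critical value for 4 values. Chance gives about 4.2 such sets. Of the 8, 5 concern Rbfox2-/- mouse M909. It had the lowest summed level of complex V, 2695 CPM against 2760 to 2773 CPM in the other 3 (share 0.840), the highest Ndufa4, 171 against 164 to 164.1 CPM (0.937), the lowest Ndufa6, 45.6 against 46.8 to 46.9 CPM (0.905), the highest Cox6a2, 0.167 against 0.0259 to 0.0398 CPM (0.902), and the lowest Cox20, 18.5 against 19.5 to 19.7 CPM (0.861). Atp5g1 was lowest in M901, 15.6 against 17.7 to 18.0 CPM (0.860). Cox6a1 was lowest in M902, 90.8 against 92.1 to 92.3 CPM (0.867). Cox7a1 was lowest in control M833, 1.60 against 2.06 to 2.10 CPM (0.904).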

How the results depend on the processing

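No member was called under any of the 16 alternatives of the test. Sdha and Sdhb kept a negative log2 fold change throughout, between -0.079 and -0.060 and between -0.12 and -0.067, and their smallest adjusted p was 0.165 (DESeq2) and 0.187 (without control M833). The number of members lower at an unadjusted p under 0.05 was 1 and became 2 with upper-quartile scaling, DESeq2, limma-voom or at least 10 counts in every mouse, and 0 with the likelihood ratio test, with 1 surrogate variable or without M901 and M902. With single mice left out it lay between 0 and 4, the 4 being Atp5g1, Ndufa6, Sdha and Sdhb without control M833. Genes called in all were 11, and 465 with DESeq2, 164 with the likelihood ratio test, 5 with the surrogate variable and 1 without M901 and M902.

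Of 36 named genes, 23 kept their sign in every alternative. With 1 surrogate variable the log2 fold change turned for Ndufa4 (0.016), Cox4i2 (0.026), Cox6b2 (0.097), Cox7b (0.011), Cox8a (-0.014), Cox8b (0.45) and Usmg5 (0.024). Without M901 and M902 it turned for Uqcrh (-0.0050), Cox4i2 (0.023), Cox6b1 (-0.0088), Cox7a2l (-0.0045), Cox8a (-0.028) and Usmg5 (0.0069), and with upper-quartile scaling for Cox8a (-0.0055). With single mice left out, the values spanned 0 in Ndufa4 (-0.043 to 0.019), Atp5b (-0.019 to 0.010), Cox4i2 (-0.031 to 0.013), Cox6b2 (-0.16 to 0.031), Cox7a1 (-0.069 to 0.10), Cox7a2 (-0.041 to 0.00082), Cox7a2l (-0.0089 to 0.071), Cox7b (-0.044 to 0.035), Cox8a (-0.018 to 0.026), Cox8b (-0.82 to 0.048) and Usmg5 (-0.052 to 0.029). The cause was not tested. Depth limits Cox6a2 most, with 5 to 32 counts per mouse. No paired analysis was possible because the labels number no replicates, and the numbers used here were given in accession order and only name the mice.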
